A study of Mus musculus with 36 samples.

Results

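The genes described here encode the nuclear subunits of the mitochondrial respiratory chain, complexes I to V, and cytochrome c. They were chosen by name: every non-control probe whose gene symbol in the scanner files begins as a complex I (Ndufa, Ndufb, Ndufc, Ndufs or Ndufv with a number), complex II (Sdha to Sdhd), complex III (Uqcr, and Cyc1), complex IV (Cox5a to Cox8c) or complex V (Atp5) subunit, or is Cycs. The rule found 80 of 27745 gene names on the array, with 111 of 41174 probes, of which 105 probes for 78 genes were among the 21781 probes of the authors' table of values. By complex, the 78 genes were 36 of complex I, 4 of complex II, 8 of complex III, 13 of complex IV, 16 of complex V and Cycs. Complexes were assigned by gene name alone, so Ndufa4 is counted in complex I, Cox7a2l in complex IV and Atp5s in complex V. Cox8b and Cox8c had no value in that table. The rule uses no measured value.

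Liver RNA of 36 adult male C57BL/6J mice (C57BL/6JOlaHsd in the methods) was measured on 2-colour Agilent arrays, 12 mice in each of 3 groups. All mice ate a mild high-fat diet with 30 energy % fat. The baseline group (t=0) was killed at the end of the adaptation phase, which lasted 3 weeks by the labels and 2 weeks by the methods, after entry at 10 weeks of age. The control group (HF) ate the same diet for a further 12 weeks, and the quercetin group (HF-Q) ate it for 12 weeks with 0.33% (w/w) quercetin, a plant flavonol. The control and baseline groups therefore differ in age and in time on the diet, which cannot be told apart. Each array carried 1 mouse in the Cy5 channel and a pool of all samples in the Cy3 channel, and the values are log2 ratios put back on an intensity scale, called normalised log2 values below. In whole liver, fewer cells of a type and less RNA per cell cannot be told apart.

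The respiratory chain passes electrons from NADH (complex I) and succinate (complex II) through complex III and cytochrome c to oxygen at complex IV, and the proton gradient built on the way drives ATP synthesis at complex V. Complexes I, III, IV and V hold subunits from both the nuclear and the mitochondrial genome, whereas complex II is wholly nuclear. Hepatocytes are rich in mitochondria and use the chain to burn fatty acids, which makes its transcripts a natural question in a study of hepatic lipid metabolism under quercetin. Many of its genes carry promoter sites for NRF1, the estrogen-related receptors (ERR) and GABP, an ETS-family factor, whose activity PGC-1 coactivators raise.

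The promoters of the members were searched for sites of these factors. RefSeq promoters (GRCm38.p6, 250 bases before to 50 after each start site) were found for 66 of the 80 genes, 71 promoters in all. The letters GCATGCGC, the core of the NRF1 site, were present on either strand in 11 promoters (15.5%, against 2.71% of all 32851 promoters). The ERR-type letters AAGGTCA were present in 8 (11.3%, against 4.72% of all), and the ETS-type letters CCGGAAG in 16 (22.5%, against 8.86% of all). The following stretches lie upstream of the start site, written 5′ to 3′ along the gene, with matches in capitals. Cox7a1 and Sdha are shown as the members with the largest rise and fall in control against baseline mice. Atp5l, Ndufs5 and Ndufa8 are shown as further members that rose and held a match. Atp5k is shown as the gene most like Ndufc1, and Cycs as the electron carrier. For Atp5g1, Ndufb5 and Atp5s, also called in that comparison, no match was found and none is shown. The choice of stretches therefore shows no link between the letters and a rise.
Cox7a1, chr7:30184091-30184170, plus strand: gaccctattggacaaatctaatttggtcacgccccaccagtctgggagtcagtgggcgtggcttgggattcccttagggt
Sdha, chr13:74350241-74350320, minus strand: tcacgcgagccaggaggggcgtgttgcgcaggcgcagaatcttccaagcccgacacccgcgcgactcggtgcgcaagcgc
Atp5l, chr9:44920943-44920992, minus strand: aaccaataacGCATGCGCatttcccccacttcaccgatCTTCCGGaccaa
Ndufs5, chr4:123718396-123718426, minus strand: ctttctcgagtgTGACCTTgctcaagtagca
Ndufa8, chr2:36049339-36049358, minus strand: gtcgctggagacGCATGCGC
Atp5k, chr5:108434428-108434461, minus strand: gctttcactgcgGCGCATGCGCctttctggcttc
Cycs, chr6:50566610-50566641, minus strand: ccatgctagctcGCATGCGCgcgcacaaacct
The capitals are the NRF1 core in Atp5l (first match), Ndufa8, Atp5k and Cycs, the ETS-type letters on the opposite strand in Atp5l (second match), and the ERR-type letters on the opposite strand in Ndufs5. In Atp5k the NRF1 core matches overlap on both strands. The stretches of Cox7a1 and Sdha held none of the searched letters, which says nothing about binding of these factors there.

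All 105 probes gave a Cy5 signal well above background on all 36 arrays, and 1 member (Cox6a1) was saturated on at least 1 array. The members were bright, with 76 of 78 genes above the median level of the table and a median level of 15.13 against 8.95 for all probes. The arrays lay on 9 slides of 4, and each slide held all groups. The array of HF replicate 5 stood apart, with a summed log2 value of 40.5 for the pancreas genes Pnlip and Cpa1, against at most 19.1 on the other 35 arrays, and its muscle markers were the highest too (18.4 against at most 16.2). The array of HF-Q replicate 2 had 96.6% of probes above background in Cy5 and the narrowest spread of values, where the other 35 arrays had 55.7% to 66.7%. Of the liver's defining markers, the hepatocyte genes Apoa1, Ttr, Cps1 and Cyp2e1 were above background on all 36 arrays. Cps1 and Cyp2e1 were lower in control than in baseline mice by 0.32 and 0.36 (log2, adjusted p = 0.018 and 0.016, limma). Ttr was at -0.21 and Apoa1 at 0.077, and neither passed. The erythroid genes Hba-a1 and Hbb-b1 were higher by 0.93 and 1.07 (adjusted p under the threshold, limma), while Alas2 was at -0.14 (limma adjusted p = 0.249). Of the other cell markers, the bile duct genes Krt19 and Sox9 were higher in control than in baseline mice by 0.42 and 0.64, and the endothelial gene Pecam1 was lower by 0.34. The endothelial genes Stab2 and Kdr were at -0.046 and 0.091 and did not pass. All 5 Kupffer cell genes had higher means in control mice (differences of 0.11 to 0.82, median 0.35), of which 0 passed (limma), 3 had an unadjusted p under 0.05, and Emr1 passed with slide as a block (adjusted p = 0.020). In quercetin against control mice, Pecam1 was higher by 0.38 and Sox9 lower by 0.60, while Stab2 (0.040), Kdr (-0.054) and Krt19 (-0.30) did not pass. Cyp2e1 was at 0.35 (limma adjusted p = 0.0909) and passed with loess log2 ratios (0.34, 0.0258). Apoa1, Ttr and Cps1 were each at -0.13 and did not pass on either scale. In quercetin against baseline mice, Hba-a1 and Hbb-b1 were higher by 1.21 and 1.38, and Ttr, Cps1 and the erythroid gene Alas2 were at -0.33, -0.45 and -0.26 (limma adjusted p = 0.0377, 0.00294 and 0.0172). Apoa1 and Cyp2e1 were at -0.050 and -0.012 and did not pass. The part of these markers in the results below was not tested.

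The level of the members in a mouse moved with the spread of its array. The mean deviation of the 78 genes from their 36-array means ran from -0.27 to 0.11 in baseline mice (median -0.0093), from -0.19 to 0.28 in control mice (median 0.049) and from -0.12 to 0.11 in quercetin mice (median -0.037), so the groups overlapped. Over the 36 arrays this mean correlated with the SD of all values of the array (Pearson's r = 0.62, permutation p = 0.00014, adjusted 0.00028; Spearman's rho = 0.72, permutation p = 2e-05, adjusted 4e-05, 2 relations tested). Every array is centred on the same median and the members lie far above it, but whether this accounts for the relation was not tested. Other bright probes were not examined, so the relation is not shown to be particular to the members. Without the 2 arrays of most extreme spread r was 0.74, and with group means removed it was 0.58. After loess normalisation, which removes the intensity-dependent dye trend of each array, the same r was 0.013 (permutation p = 0.936, adjusted 0.936) and rho was 0.11 (permutation p = 0.502, adjusted 0.502). For this reason differences are given below both for the deposited values and for loess log2 ratios computed from the scanner signals.

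**Figure D1:**
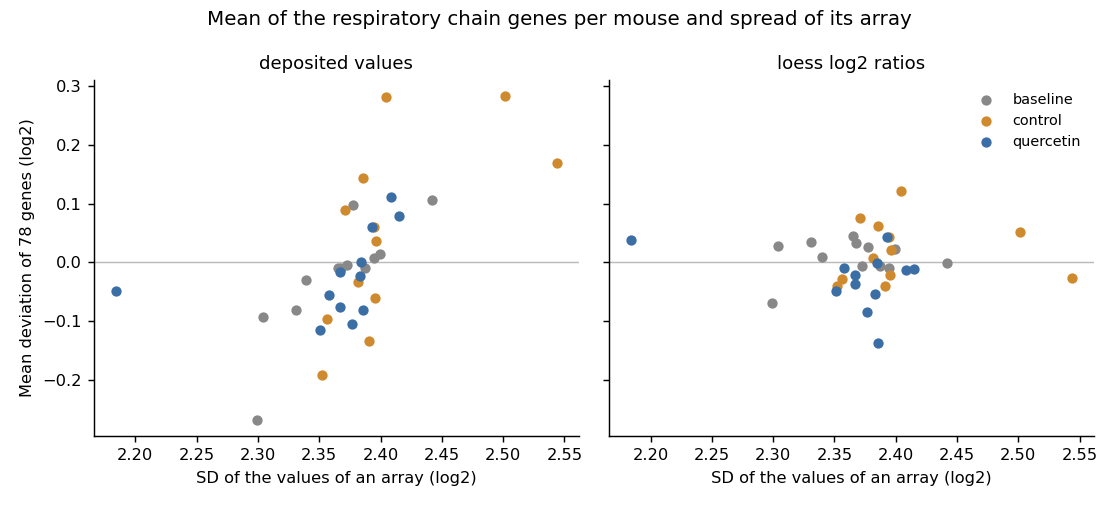
Each point is a mouse. The y axis is the mean deviation (log2) of the 78 respiratory chain genes from their 36-array means, and the x axis is the SD (log2) of all values of its array, for the deposited values (left) and for loess log2 ratios (right). On the left the points climb from the lower left to the upper right (r = 0.62), while on the right they do not (r = 0.013), and the 3 groups lie among each other on both sides.

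In quercetin-fed mice, no respiratory chain gene passed the test against the control group. Of 78 genes, 0 passed an adjusted p of 0.05 (limma with Benjamini-Hochberg adjustment over 21781 probes), where 2.36% of all probes did, and 3 genes had an unadjusted p under 0.05, where 15.4% of all probes did. From loess log2 ratios 0 of 78 genes passed as well (2.9% of all probes), and 15 had an unadjusted p under 0.05, where 15.9% of all probes did. The differences were small and mostly downward: 71 genes were lower and 7 higher in the quercetin group, with a median of -0.074 (log2) and a range from -0.18 to 0.078. Over all probes the median was 0.013 and 45.2% were lower, but of the probes above the table's median level, where nearly all members lie, 61.7% were lower. After loess 62 members were lower, with a median of -0.049, and 49.6% of the probes above the median level were lower. The 95% confidence interval of a member's difference was typically 0.14 to either side, and the 78 intervals together spanned -0.34 to 0.24.

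With the deposited values the lower members were spread over all complexes, and with loess log2 ratios over complexes I, IV and V. In complex I 35 of 36 genes were lower (median -0.077), in complex II 3 of 4 (-0.058), in complex III 6 of 8 (-0.017), in complex IV 10 of 13 (-0.086) and in complex V 16 of 16 (-0.070). After loess these counts were 30 of 36 (-0.049), 2 of 4 (-0.0078), 3 of 8 (0.0057), 11 of 13 (-0.080) and 15 of 16 (-0.058), so that the median of complex III turned its direction. Within slides the median difference of the members ran from -0.27 to 0.22 and was below 0 on 7 of 9 slides, and with slide as a block it was -0.049. Leaving out HF replicates 1 and 7, the 2 arrays with the widest spread of values, gave a median of -0.036, with 0 genes called.

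The largest difference within each complex stayed short of the threshold. Ndufc1, an accessory subunit in the membrane arm of complex I, had the smallest p of the members. Its value ran from 14.96 to 15.60 in control mice (median 15.24) and from 14.94 to 15.23 in quercetin mice (median 15.09), so that 0 of 12 quercetin mice lay above the control median while the ranges overlapped. The difference was -0.15 ± 0.063 (SE, n = 12 and 12, limma adjusted p = 0.226, 95% confidence interval -0.28 to -0.024). Its dimmer probe gave -0.19 (limma adjusted p = 0.0933). Cox7b, a small subunit of complex IV, had the largest difference, -0.18 ± 0.077 (limma adjusted p = 0.255). Uqcrq, a small subunit of complex III, was at -0.15 (limma adjusted p = 0.372), Atp5j, coupling factor 6 of ATP synthase, at -0.13 (0.360), and Sdhb, the iron-sulphur subunit of complex II, at -0.092 (0.474). None of these passed the threshold with deposited values or with loess log2 ratios.

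**Figure D2:**
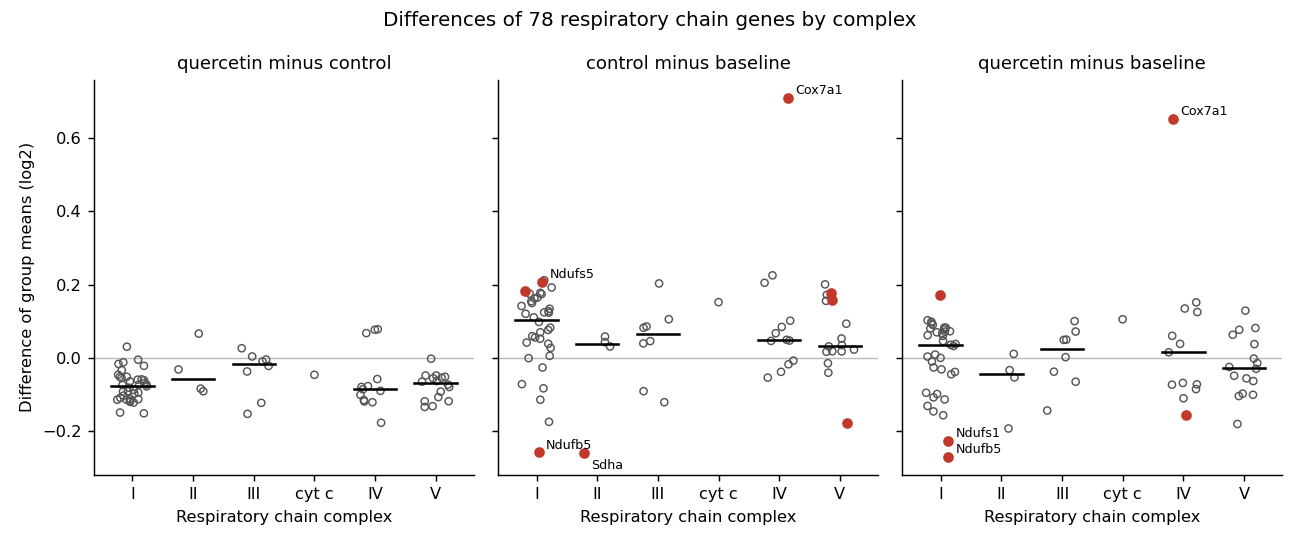
Difference of group means (log2) of each of the 78 genes, by complex (cyt c is Cycs), for quercetin minus control (left), control minus baseline (middle) and quercetin minus baseline (right). Filled red points passed an adjusted p of 0.05, open points did not, and bars are medians. The left panel holds no red point and lies mostly below 0, whereas Cox7a1 stands far above the other members in both comparisons with baseline (0.71 and 0.65).

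Between the baseline and the control group, 8 of 78 genes changed, where 21.3% of all probes passed: 5 rose (10.9% of all probes rose) and 3 fell (10.4% of all probes fell). The members that rose were Cox7a1, Ndufs5, Ndufa8, Atp5l and Atp5g1, and those that fell were Sdha, Ndufb5 and Atp5s. The median over the 78 genes was 0.063 (log2, 61 higher and 17 lower), where the median of all probes was -0.0047. With loess log2 ratios 14 genes passed (6 higher and 8 lower, 21.3% of all probes), the median was 0.0029, and 39 genes were higher and 39 lower. The balance between higher and lower members therefore depended on the scaling. Without HF replicate 5, the array with pancreas genes, 18 genes passed (15 higher and 3 lower, 21.8% of all probes), with all 8 above among them. With loess log2 ratios and without that array 15 passed (7 higher and 8 lower, 20.3% of all probes), and without HF replicates 1 and 7 with the deposited values 5 passed (20% of all probes). With slide as a block 2 of the 8 remained, Cox7a1 and Sdha (17.3% of all probes), and with Arntl (below) as a covariate 2, Cox7a1 and Ndufs5 (16.8% of all probes). Of 18 other settings, Sdha passed in 17, Ndufb5 in 16, Ndufs5 and Atp5s in 15 each, Atp5l in 7, Atp5g1 in 6 and Ndufa8 in 4.

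Cox7a1 had by far the largest difference of the chain. It encodes the heart and muscle form of subunit 7a of complex IV, and Cox7a2 encodes the form that prevails in liver. Its probe lies on chromosome 7, 29894078 to 29894689 (mm8). Cox7a1 values in baseline mice ran from 10.51 to 11.22 (median 11.01), in control mice from 11.18 to 12.13 (median 11.63) and in quercetin mice from 11.14 to 12.14 (median 11.57). All but 1 of the control mice and all but 2 of the quercetin mice lay above the highest baseline mouse, and the control and quercetin mice covered the same range. The rise from baseline to control was 0.71 ± 0.094 (SE, n = 12 and 12, 1.64-fold, limma adjusted p = 8.25e-06), and 0.65 after loess. It was above 0 on 9 of 9 slides (0.26 to 1.30), and 18 of 18 other settings kept it past the threshold. From baseline to quercetin Cox7a1 rose by 0.65 ± 0.105 (SE, 1.57-fold, limma adjusted p = 0.000235), and between quercetin and control it differed by -0.058 (limma adjusted p = 0.830, 95% confidence interval -0.28 to 0.17).

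None of the other isoforms measured in complex IV passed in the same comparison (limma adjusted p in parentheses). Cox7a2 was at 0.046 (limma adjusted p = 0.683) and Cox7a2l, a factor that joins complexes III and IV, at -0.018 (0.872). Of the paired isoforms of subunit 6a, the liver form Cox6a1, saturated on 1 array, was at 0.22 (0.074) and the muscle form Cox6a2 at 0.084 (0.445). Ndufa4, now placed in complex IV but counted here in complex I by its name, was at 0.16 (0.254). Cox6b1 was at -0.0081 (0.952) and the testis form Cox6b2 at -0.039 (0.714). Cox7b was at 0.067 (0.571) and Cox8a at 0.049 (0.631). Of 5 muscle markers, Ckm, Myh4 and Myh6 were above background on at most 2 arrays and not in the table. Acta1 was at 0.048 (limma adjusted p = 0.881) and Actc1 at 0.27 (0.196) in control against baseline mice. The summed log2 value of these last genes ran from 13.95 to 15.04 in baseline, 13.66 to 18.44 in control and 14.17 to 16.22 in quercetin mice, and Cox7a1 was at 0.73 without the control mouse of highest value (HF replicate 5).

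Sdha, the flavoprotein of complex II that oxidises succinate, fell. Its values ran from 12.73 to 13.38 in baseline mice (median 13.26), from 12.66 to 13.32 in control mice (median 12.89) and from 12.84 to 13.24 in quercetin mice (median 12.95), with 1 of 12 control mice and 0 of 12 quercetin mice above the baseline median. The fall from baseline to control was -0.26 ± 0.079 (SE, n = 12 and 12, 0.835-fold, limma adjusted p = 0.0199), and -0.30 after loess. The difference was below 0 on 8 of 9 slides (-0.45 to 0.11). The probe lies on chromosome 13, 74788700 to 74788759 (mm8), and a second, dimmer probe of Sdha gave -0.027 (limma adjusted p = 0.840), so the fall rests on 1 of 2 probes. The remaining subunits of complex II, Sdhb (0.058), Sdhc (0.042) and Sdhd (0.031), did not pass (lowest limma adjusted p = 0.587). After loess they were at -0.0030, -0.026 and -0.029, so that their direction depended on the scaling.

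In complex I, 29 of 36 genes were higher and 7 lower in control than in baseline mice, with a median of 0.10, and after loess 22 were higher and 14 lower, with a median of 0.040. Among the accessory subunits, Ndufs5, which faces the intermembrane space, ran from 16.61 to 16.85 in baseline mice (median 16.73), from 16.65 to 17.27 in control mice (median 16.86) and from 16.67 to 17.04 in quercetin mice (median 16.83). It rose by 0.21 ± 0.061 from baseline to control (limma adjusted p = 0.0158), with 11 of 12 control mice above the baseline median, and by 0.13 after loess. Ndufa8, of the same twin-cysteine family, rose by 0.18 ± 0.065 (limma adjusted p = 0.048), but was at 0.12 after loess (0.080). Ndufb5, a subunit of the membrane arm, fell. Its values ran from 11.52 to 12.10 in baseline mice, from 11.13 to 11.87 in control mice and from 11.12 to 12.08 in quercetin mice. It fell by 0.26 on the log2 scale (SE 0.085, limma adjusted p = 0.0305) and by 0.29 after loess, and was below 0 on 8 of 9 slides.

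In complex V, Atp5l, which encodes subunit g of the membrane part, rose by 0.18 ± 0.065 (limma adjusted p = 0.0499, and 0.0378 after loess). Atp5g1, 1 of the genes for the c-ring that turns with the proton flow, rose by 0.16 ± 0.054 (0.0373, and 0.067 after loess), whereas Atp5g2 (0.093) and Atp5g3 (0.017), which encode the same mature protein, did not pass (limma adjusted p = 0.261 and 0.900). Atp5s, Dmac2l in current RefSeq naming, fell by 0.18 on the log2 scale (limma adjusted p = 0.0232). The probes of Atp5a1, the catalytic-head alpha subunit, disagreed: the brighter was at 0.052 (limma adjusted p = 0.566) and the dimmer at -0.18 (0.011). Called and uncalled probes stood side by side in 5 of the 22 genes with several probes. In complex III no gene passed with the deposited values, and the largest difference was that of Uqcrq, at 0.20 (limma adjusted p = 0.108). Cyc1, the cytochrome c1 subunit, was at -0.12 (limma adjusted p = 0.192) and Uqcrc2, a core protein, at -0.092 (0.332), and both passed as lower after loess (-0.17 and -0.15, 0.0244 and 0.0123). Cycs, cytochrome c itself, was at 0.15 (0.078) by its brightest probe, and its other probes were at -0.030 and -0.019.

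**Figure D3:**
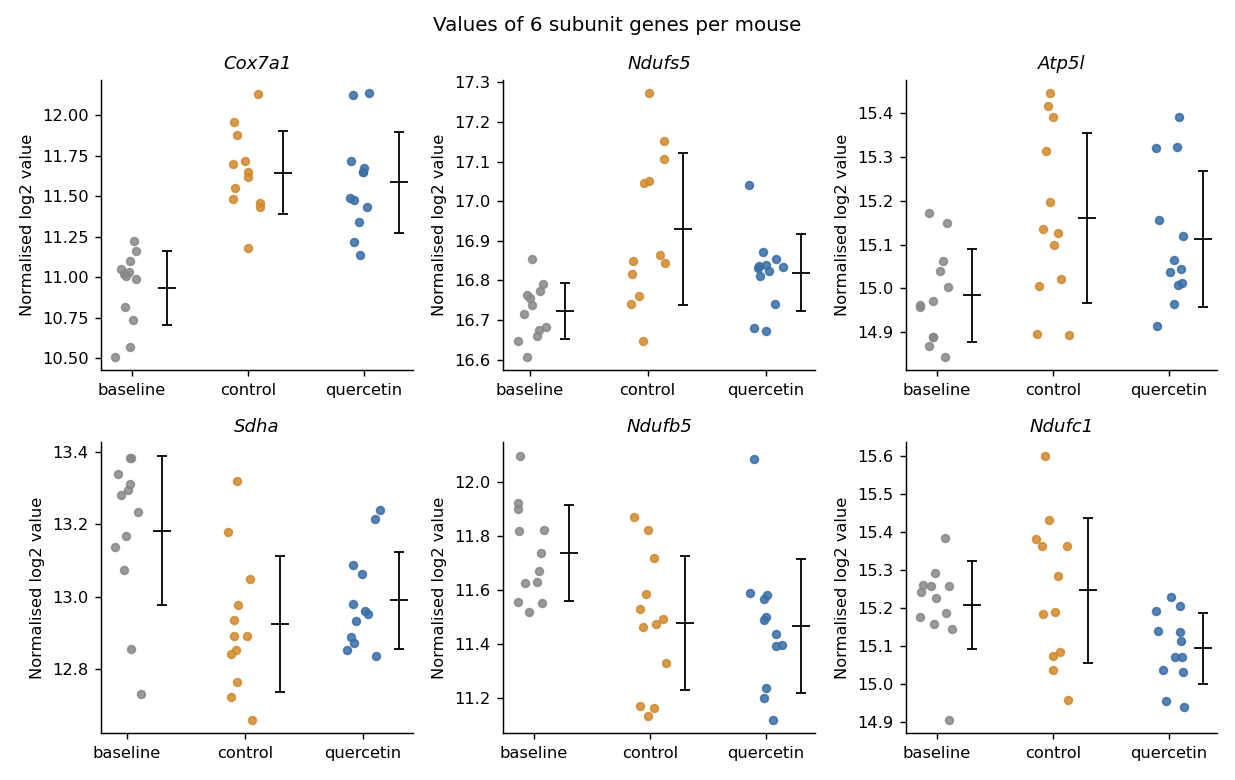
Normalised log2 values of 6 genes in each mouse (12 baseline, 12 control and 12 quercetin mice), with the mean and SD beside the points. Each panel has its own y axis. The Cox7a1 values of control and quercetin mice sit above nearly all baseline values, Ndufs5, Atp5l, Sdha and Ndufb5 differ by less than the ranges of the groups, and the quercetin values of Ndufc1 all lie below the control median of 15.24.

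Between the baseline and the quercetin group, which shares the baseline mice with the comparison above, 5 of 78 genes changed, where 11.9% of all probes passed: 2 rose (6.62% of all probes rose) and 3 fell (5.3% of all probes fell). Cox7a1 rose (above), and Ndufa7, an accessory subunit of complex I, rose by 0.17 ± 0.051 (limma adjusted p = 0.0272), with 11 of 12 quercetin mice above the baseline median. Ndufb5 fell by 0.27 on the log2 scale (SE 0.085, limma adjusted p = 0.0355). Ndufs1, the largest core subunit of complex I, fell by 0.23 (SE 0.076, limma adjusted p = 0.0497), from a baseline range of 13.83 to 14.67 to a quercetin range of 13.99 to 14.58. Cox5b, a zinc-binding subunit of complex IV, fell by 0.16 (SE 0.047, limma adjusted p = 0.0303), and 0 of 12 quercetin mice lay above its baseline median of 16.46. Sdha was at -0.19 (limma adjusted p = 0.0734), and the dimmer probe of Atp5a1 fell by 0.26 (SE 0.046, limma adjusted p = 0.00058) while its brighter probe was at -0.0024 (0.983). The median of the 78 genes was 0.0022, with 40 higher and 38 lower. After loess 16 genes passed, 2 higher and 14 lower, where 14.6% of all probes passed, and the median was -0.039. Side by side, control against baseline and quercetin against baseline gave -0.18 and -0.23 for Ndufs1, -0.054 and -0.16 for Cox5b, 0.18 and 0.17 for Ndufa7, 0.21 and 0.098 for Ndufs5, and 0.16 and 0.076 for Atp5g1.

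The genes varied together from mouse to mouse. After the group means were removed, the median Pearson's r over 36 mice was 0.59 for the 862 pairs of genes within a complex and 0.53 for the 2141 pairs between complexes, given as a description because all members share each array and its spread. With loess log2 ratios the medians were 0.20 and 0.16. Pairs of other probes were not examined, so this co-variation is not shown to be particular to the members. The genes most like Ndufc1 over the 36 mice were Atp5k (r = 0.88), 2010107E04Rik (0.82), Cox7b (0.81), Tomm7 (0.81) and Ndufb2 (0.81), 3 of them members of the chain, and Atp5k was again first with loess log2 ratios (0.78). Cox7a1 was less like the rest, with Cd9 (0.69), Zfp764 (0.65) and Ndufs7 (0.64) nearest to it. Sdha was nearest to Immt (0.88), an organiser of the inner membrane.

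The genes around the chain were read from lists drawn up with the members. In quercetin against control mice, 1 gene of the 59 with values passed. Cs, citrate synthase, the entry enzyme of the citrate cycle, ran from 14.16 to 14.65 in control mice (median 14.38) and from 13.66 to 14.41 in quercetin mice (median 14.06). The difference was -0.34 ± 0.083 (limma adjusted p = 0.0259), it was -0.21 (0.133) at its dimmer probe, and it passed in 8 of 20 other settings (-0.36 to -0.11). With loess log2 ratios it was -0.29 (limma adjusted p = 0.0505), and no setting on loess log2 ratios passed. With slide as a block (-0.32, limma adjusted p = 0.0743) and with the replicate number as a block (-0.34, 0.0937) Cs did not pass either. The clock gene Arntl was lower in quercetin than in control mice by 1.00 (log2, limma adjusted p = 0.0034), and with Arntl as a covariate the difference of Cs was -0.12 (limma adjusted p = 0.629). Of the quercetin mice, 0 of 12 lay above the control median of Arntl, so this covariate takes up part of the diet difference. The fit therefore cannot tell a part of Arntl in Cs from that of the diet. The other 12 citrate cycle genes lay between -0.077 and 0.083.

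In control against baseline mice, the coactivator Ppargc1b fell by 0.62 on the log2 scale (SE 0.16, limma adjusted p = 0.0072) and Ppargc1a by 0.43 (SE 0.15, 0.0447), while Pprc1, of the same family, was at 0.21 (0.187). With Arntl as a covariate Ppargc1b was at -0.30 (limma adjusted p = 0.067) and Ppargc1a at -0.34 (0.158), and with slide as a block they were at -0.62 (0.0307) and -0.39 (0.118). Arntl itself was at 0.61 in this comparison (limma adjusted p = 0.0695), with 11 of 12 control mice above the baseline median. Fits with Arntl therefore cannot tell its part from that of age and time on the diet. Ppargc1b values ran from 10.14 to 11.60 in baseline, 9.68 to 10.64 in control and 9.84 to 11.33 in quercetin mice. Tfam, which packs and transcribes mitochondrial DNA, fell by 0.30 in control mice (SE 0.11, 0.0418) and by 0.32 in quercetin mice (SE 0.080, 0.0094). The call of Tfam in control mice was lost with slide as a block (limma adjusted p = 0.129) and with Arntl as a covariate (0.109). These were 3 of 12 regulators, where 21.3% of all probes passed, and Nrf1, Gabpa and Esrra were at -0.010, -0.013 and 0.057. Of 20 assembly factors, 4 rose and 2 fell, where 10.9% of all probes rose and 10.4% fell. Cox19, which helps build complex IV, rose by 0.39 (SE 0.074, limma adjusted p = 0.00052) in control mice and by 0.28 (SE 0.059, 0.0025) in quercetin mice, and Sco1, Ecsit and Atpaf2 rose by 0.16 to 0.20. Ndufaf1, an assembly factor of complex I, fell by 0.20 (0.0109), and Atpaf1, which assembles the head of ATP synthase, fell by 0.18 (0.0259). With loess log2 ratios Sco1 was at 0.12 (limma adjusted p = 0.0582) and Ecsit at 0.11 (0.0790), and neither passed. Cox19, Atpaf2, Ndufaf1 and Atpaf1 passed with loess as well. With slide as a block Ecsit and Atpaf1 did not pass (limma adjusted p = 0.0671 and 0.0767). Of 3 subunits that the name rule does not catch, Usmg5, a small subunit of ATP synthase, rose by 0.23 (0.0455), and Cox4i1 (0.084) and Ndufab1 (-0.010) did not pass. Usmg5 passed with loess log2 ratios (0.16, limma adjusted p = 0.0111) but not with slide as a block (0.19, 0.129). Of 13 citrate cycle genes 0 passed (limma), with 4 at an unadjusted p under 0.05 and 3 called with loess log2 ratios, and of 11 carriers 0 passed, with 0 at an unadjusted p under 0.05 and 0 called with loess log2 ratios.

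**Figure D4:**
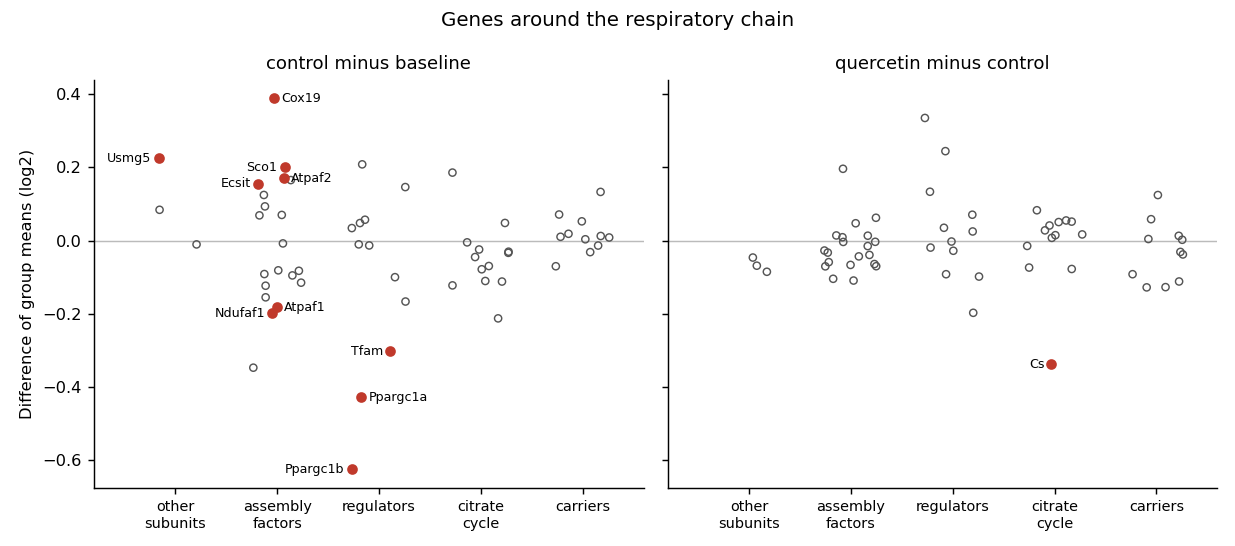
Difference of group means (log2) of genes around the respiratory chain in 5 lists (subunits outside the name rule, assembly factors, regulators, citrate cycle, carriers and electron transfer), for control minus baseline (left) and quercetin minus control (right). Filled red points passed an adjusted p of 0.05 and carry their names. On the left the lowest points are the coactivators Ppargc1b (-0.62) and Ppargc1a (-0.43) and the highest is Cox19 (0.39), and on the right Cs (-0.34) is the only red point.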

How the data were processed

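Liver RNA of 36 mice was hybridised against a pool of all samples on 2-colour arrays. The authors extracted spot intensity values with Agilent Feature Extraction (10.5.1.1 in the submitters' processing notes). They deposited a table of log2 values, which by comparison with the scanner files is close to log2 Cy5 minus log2 Cy3 plus the mean log2 Cy3 (median absolute difference 0.020) with every array centred on the same median, without background subtraction or intensity-dependent correction. The depth of an array is its signal over background, and the number of arrays limits the precision.

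The deposited log2 values were tested with limma 3.58.1 (R 4.3.3) on the 24 arrays of each comparison, with Benjamini-Hochberg adjustment over 21781 probes and a threshold of 0.05. A gene was read from its brightest probe. Loess log2 ratios were computed from the scanner intensity values (normexp, offset 50). The fit was tested on simulated data. Members, gene lists and tests were chosen with earlier results of these data known. Named were up to 8 called members per comparison by size, the largest of each complex, complex II, Cycs, Cyc1 and the tissue isoforms. Neighbours were named where called in quercetin against control or control against baseline mice. Further neighbours passed between quercetin and baseline mice, of which only Cox19 and Tfam are described there. Genes such as Uqcrc2, Atp5g2, Atp5g3, Atp5a1 and Atp5k were added after their values were seen. Probe positions are mm8, and 98 of 111 member probes matched a current RefSeq symbol by accession. In all, 14 alternatives were planned and 7 added after seeing the data. The labels name separate mice as replicates. The values of 1 member by name, and results that need it, are not reported here.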

Additional observations from a re-analysis of the deposited data

How the results depend on the processing

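Between quercetin and control mice, 0 genes and 0 probes passed under every alternative run. Of 23 differences of named members followed through all alternatives, none turned its direction, whereas the small differences of Sdhb, Sdhc and Sdhd between control and baseline mice did so with loess. The 23 were picked from these same data as called or as the largest of a complex, so their kept direction is no separate support. Between control and baseline mice the 8 genes (12 probes) called became 14 genes with loess, 19 (24 probes) with Feature Extraction's processed signals, 2 (3) with slide as a block, 2 (4) with Arntl as a covariate, 5 (6) without HF replicates 1 and 7 and 18 (22) without HF replicate 5, and 15 with loess and without HF replicate 5. Between quercetin and baseline mice the 5 genes (7 probes) called became 16 (21) with loess, 15 (18) with quantile normalisation, 13 (15) with processed signals, 15 (18) with loess and no filter on dim probes, 11 (14) with array weights and 3 genes with all 36 arrays in one fit. Loess combined with leaving out HF-Q replicate 2 gave 16 (22), with slide as a block 16 (19) and with Arntl 16 (20). Of all probes, 11.9% passed between quercetin and baseline mice with the deposited values and 14.6% with loess. The share is not given here for the other settings of this comparison, the replicate block below included. Nor is it given for processed signals between control and baseline mice. The counts under those settings therefore do not show whether the members moved more than other probes. The median of the members in quercetin against baseline mice turned from 0.0022 to -0.039 with loess. The cause of these shifts was not tested.

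Replicate numbers did not pair the mice: same-numbered mice deviated together at r over 0.1 in 3, 4 and 4 of 12 pairs (quercetin against control, control against baseline, quercetin against baseline). With the replicate number as a block, 2 genes (4 probes) passed between quercetin and baseline mice, and 16 (18) with loess and the block. The replicate block moved neither other count by over 1.5 times.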

Other observations

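6 member probes had no value in the authors' table, and none had a Cy5 signal well above background on all 36 arrays. The probe of Ndufc1 outside the table was above background on 35 of 36 arrays, that of Cox8b, the muscle form of subunit 8, on 26 and that of Ndufa3 on 25. The probes of Cox8c and Ndufs4 were above background on 2 arrays each, and the second probe of Ndufs1 on 0.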
